A study of Homo sapiens with 6 samples.

Results

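The genes described here are those of cholesterol synthesis, of the sterol-sensing SREBP system and of its fatty acid targets, 32 gene rows of the 37879 on the array. They were chosen by pathway symbol after earlier results of these same 6 arrays were known, including the higher values of several of them once 1 control array was left out. Differences between the groups are therefore given for these genes as a description and carry no test of their own. All 32 had a row, and 30 passed the filter on dim rows, which asked for a detection p-value (the probability that negative control beads of the same array are as bright) under 0.05 on at least 3 of the 6 arrays. SREBF1 and STARD4 did not pass.

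Total RNA was measured in HEK293T cells, a human embryonic kidney line that carries the SV40 large T antigen, on Illumina HumanWG-6 v3 BeadChips. Both groups were transiently transfected cells of this 1 line, arrested in prometaphase by nocodazole, a microtubule poison (50 ng/ml, given over 15 h per the labels). The 3 control samples had received an empty vector, and the 3 Stau1 samples a plasmid coding for Stau155-FLAG, a tagged 55-kDa isoform of the double-stranded RNA-binding protein Staufen1. The labels do not say that the 3 samples of a group came from separate cultures, so the spread between them may be technical. Because all cells were drug-arrested and grown in serum, which carries lipoprotein cholesterol, the levels below belong to that state.

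Cells hold their membrane cholesterol steady through the SREBP transcription factors, which are made as precursors in the membrane of the endoplasmic reticulum. When sterols are scarce, the escort protein SCAP carries SREBP to the Golgi, proteases release its amino-terminal part, and that part enters the nucleus and switches on the genes of sterol and fatty acid synthesis. When sterols are plentiful, INSIG proteins hold SCAP and SREBP back, and INSIG1 is itself an SREBP target, so that its transcript follows the activity of the system. SREBP2, encoded by SREBF2, acts mainly on sterol genes, and the SREBF1 products act more on fatty acid genes.

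SREBP binds sterol regulatory elements near transcription starts, commonly beside sites for NF-Y, a factor that binds CCAAT. Promoter windows of 250 bases before to 50 bases after the annotated start (GRCh38.p14, RefSeq) were held for 28 of the 32 genes, 2 of them under a newer symbol (SC4MOL as MSMO1, SC5DL as SC5D), and were not held for FDFT1, SQLE, ACAT2 and FASN. Those shown are of INSIG1, IDI1, SC4MOL and HMGCS1, the 4 genes with the widest spread over the arrays, and of INSIG2, the relative of INSIG1 whose order over the arrays was the opposite. Where several windows were held, the one with the most matches to the motifs is shown. They run 5′ to 3′ on the gene's strand, and capitals mark matches to CACNCCAC, the core of the sterol regulatory element, and to CCAAT, each on either strand, so that a match on the other strand appears as its reverse complement.
INSIG1: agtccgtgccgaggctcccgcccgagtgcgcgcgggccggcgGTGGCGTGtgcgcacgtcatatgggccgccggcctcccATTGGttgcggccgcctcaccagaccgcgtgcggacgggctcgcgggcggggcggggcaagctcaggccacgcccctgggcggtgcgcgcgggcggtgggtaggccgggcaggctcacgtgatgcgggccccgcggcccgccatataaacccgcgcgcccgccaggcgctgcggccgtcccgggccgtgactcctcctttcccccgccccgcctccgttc
IDI1: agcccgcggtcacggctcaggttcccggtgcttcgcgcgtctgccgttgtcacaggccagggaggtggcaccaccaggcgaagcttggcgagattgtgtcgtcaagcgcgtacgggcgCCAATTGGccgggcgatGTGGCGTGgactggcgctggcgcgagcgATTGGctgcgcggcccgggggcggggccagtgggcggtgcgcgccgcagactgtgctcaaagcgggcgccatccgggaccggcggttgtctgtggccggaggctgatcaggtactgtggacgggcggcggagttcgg
SC4MOL: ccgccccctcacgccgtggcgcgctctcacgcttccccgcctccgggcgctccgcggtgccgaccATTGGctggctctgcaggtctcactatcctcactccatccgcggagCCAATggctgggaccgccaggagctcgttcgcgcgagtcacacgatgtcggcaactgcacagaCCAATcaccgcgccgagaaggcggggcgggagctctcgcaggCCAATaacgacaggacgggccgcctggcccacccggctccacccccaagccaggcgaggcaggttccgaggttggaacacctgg
HMGCS1: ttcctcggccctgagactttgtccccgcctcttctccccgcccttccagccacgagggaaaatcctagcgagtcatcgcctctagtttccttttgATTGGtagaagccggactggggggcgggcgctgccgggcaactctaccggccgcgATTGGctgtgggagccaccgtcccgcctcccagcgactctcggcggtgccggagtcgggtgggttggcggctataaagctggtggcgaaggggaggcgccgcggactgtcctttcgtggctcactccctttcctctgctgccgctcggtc
INSIG2: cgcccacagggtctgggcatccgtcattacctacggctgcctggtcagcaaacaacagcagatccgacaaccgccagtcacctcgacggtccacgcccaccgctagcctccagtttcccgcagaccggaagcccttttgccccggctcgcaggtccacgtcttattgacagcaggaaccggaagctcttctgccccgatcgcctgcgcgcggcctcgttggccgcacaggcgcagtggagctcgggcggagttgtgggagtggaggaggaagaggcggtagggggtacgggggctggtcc
The INSIG1 window lay at chr7:155297628-155297927 on the plus strand and held 1 match to CACNCCAC, 208 bases before the start, and 1 CCAAT match. The IDI1 window, 1 of 3 held for that gene, lay at chr10:1048837-1049136 on the minus strand and held 1 CACNCCAC match and 3 CCAAT matches, of which a pair overlap as CCAATTGG. The SC4MOL window (chr4:165327419-165327718, plus strand) held 4 CCAAT matches and the HMGCS1 window (chr5:43313363-43313662, minus strand, 1 of 2 held) held 2, and neither held CACNCCAC. The INSIG2 window (chr2:118088221-118088520, plus strand, 1 of 2 held) held neither motif.

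Over all 28 genes with a window, 20 held CCAAT (71.4%), compared with 39.7% of the 27305 genes with a window. CACNCCAC stood in the windows of 6, IDI1, SC5DL, SREBF2, INSIG1, ACACA and SCD (21.4%), compared with 7.05% of all genes. The longer form TCACNCCAC, searched first, stood in 1, SREBF2 (3.57%, compared with 1.39% of all genes), and the shorter form, which it contains, was added after that search. Over single windows of the same length, 34.6% of 35116 held CCAAT, 5.87% CACNCCAC and 1.13% TCACNCCAC. These matches are letters in a window and were not tested as binding sites.

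**Figure D1:**
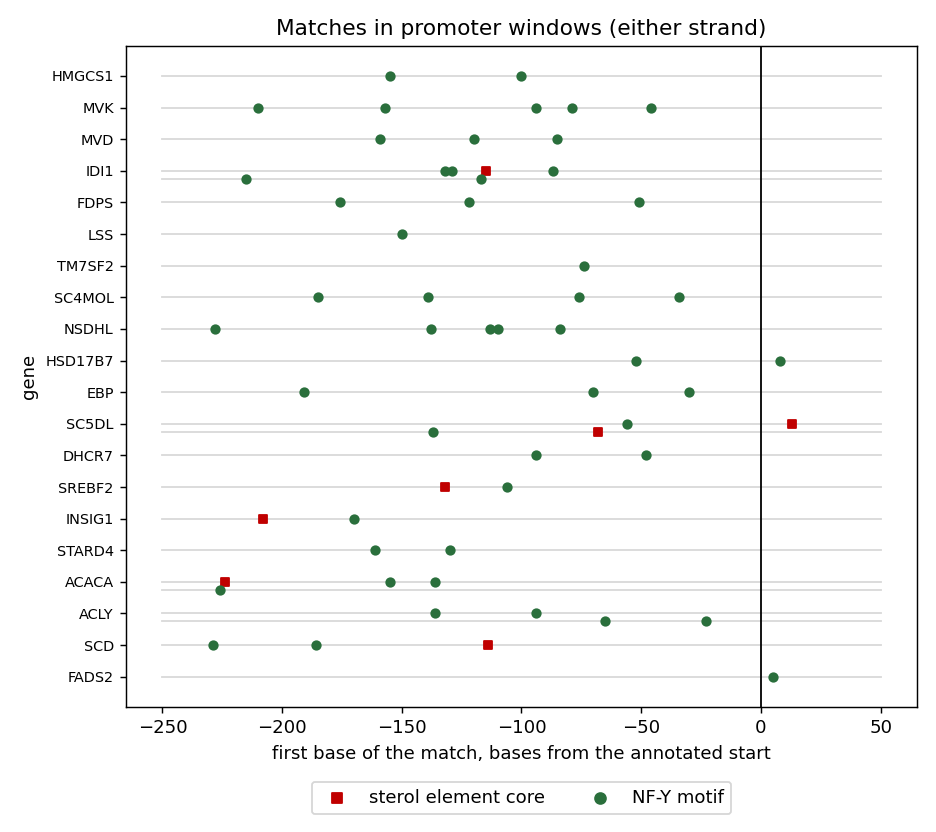
Position of each match to the sterol element core (CACNCCAC, red squares) and to the NF-Y motif (CCAAT, green circles) on either strand, in bases from the annotated transcription start at 0; each grey line is 1 promoter window of a gene, and the 20 genes with a match are shown. Most of the matches lie before the start.

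The arrays as a whole were read as follows. Between 12730 and 13469 rows were detected per array, median bead numbers were 40 to 41 per row, and 13285 rows passed the filter (35.1%). The line's markers NEFL, NEFM and LIN28B were detected on all 6 arrays, PAX2 on 1 and NEFH on 0, and all 10 mitotic markers were detected on every array, whereas 7 of 9 markers of liver, skin and fibroblasts were detected on 0 arrays (TTR was detected on 3 and COL1A1 on all 6). The STAU1 row was 11.19, 11.38 and 11.36 in the controls and 11.39, 11.51 and 11.47 in the Stau1 arrays (log2 normalised intensity), a difference of 0.15 (SE 0.09) that limma did not call, with an adjusted p of 0.999. Whether its probe lies in the plasmid's coding sequence was not tested.

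No gene row of the array was called between the groups (limma, adjusted p under 0.05), so percent called was 0 over the 13285 rows and 0 over the 30 genes. At an unadjusted p under 0.05, limma gave 495 of the 13285 rows, 319 of them higher in Stau1, and 9 of the 30 genes, all higher in Stau1. The genes were chosen with earlier results of these arrays known, so the count of 9 is a description and no independent evidence. The methods' t-test also called 0 rows after adjustment, with 464 at an unadjusted p under 0.05. The levels behind these counts were uneven within the control group, and each array is therefore given singly. Fewer cells in a state and less RNA per cell cannot be told apart in such bulk RNA.

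INSIG1, which retains the SREBP–SCAP complex in the endoplasmic reticulum, varied most. Its log2 normalised intensity was 9.47, 9.59 and 11.03 in control replicates 1 to 3 and 11.08, 10.95 and 11.05 in Stau1 replicates 1 to 3. Control replicates 1 and 2 were low and lay 1.36 below the next array, while control replicate 3 lay within the range of the Stau1 arrays, so the groups overlapped. The difference was 1.00 (SE 0.29, n = 3 per group), or 1.99-fold, over all 6 arrays and 1.50 (SE 0.11), or 2.82-fold, without control replicate 3. In the deposited intensities the same row read 613, 776 and 2726 in the controls and 2094, 2253 and 2371 in the Stau1 arrays, with standard errors over beads from 33.6 to 119. The gap in these unnormalised values exceeded the bead error, which covers only the beads of 1 array. Mean deposited intensity over all rows also differed, from 429.1 in control replicate 1 to 616.9 in control replicate 3. Its part in the gap was not tested. The INSIG1 row is the mean of several probes.

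SCAP, INSIG2 and SREBF2 did not follow INSIG1. SCAP, the escort, had the smallest spread of the 30 genes, at 10.71, 10.66 and 10.73 in the controls and 10.67, 10.74 and 10.80 in the Stau1 arrays, a difference of 0.04 (SE 0.09). INSIG2, which has the same retention role but a transcript that SREBP does not induce, was 8.88, 8.97 and 8.58 in the controls and 8.57, 8.79 and 8.57 in the Stau1 arrays. Here control replicates 1 and 2 were the 2 highest arrays, and the difference was -0.17 (SE 0.14).

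SREBF2, the gene of the sterol-directed factor, stood near the background at 6.24, 5.996 and 6.17 in the controls and 6.15, 5.85 and 5.91 in the Stau1 arrays. Its groups overlapped, with a difference of -0.17 (SE 0.15). SREBF1 was detected on 0 arrays, with detection p-values from 0.0935 to 0.153. Its deposited intensities were 131, 124 and 195 in the controls and 155, 169 and 182 in the Stau1 arrays. Since this row averages several probes, its detection p-value does not follow its intensity as that of a single probe does, and no fold is given. After normalisation this row, too, was lowest in control replicates 1 and 2, at 6.27 and 5.98 compared with 6.46 to 6.65 on the others.

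**Figure D2:**
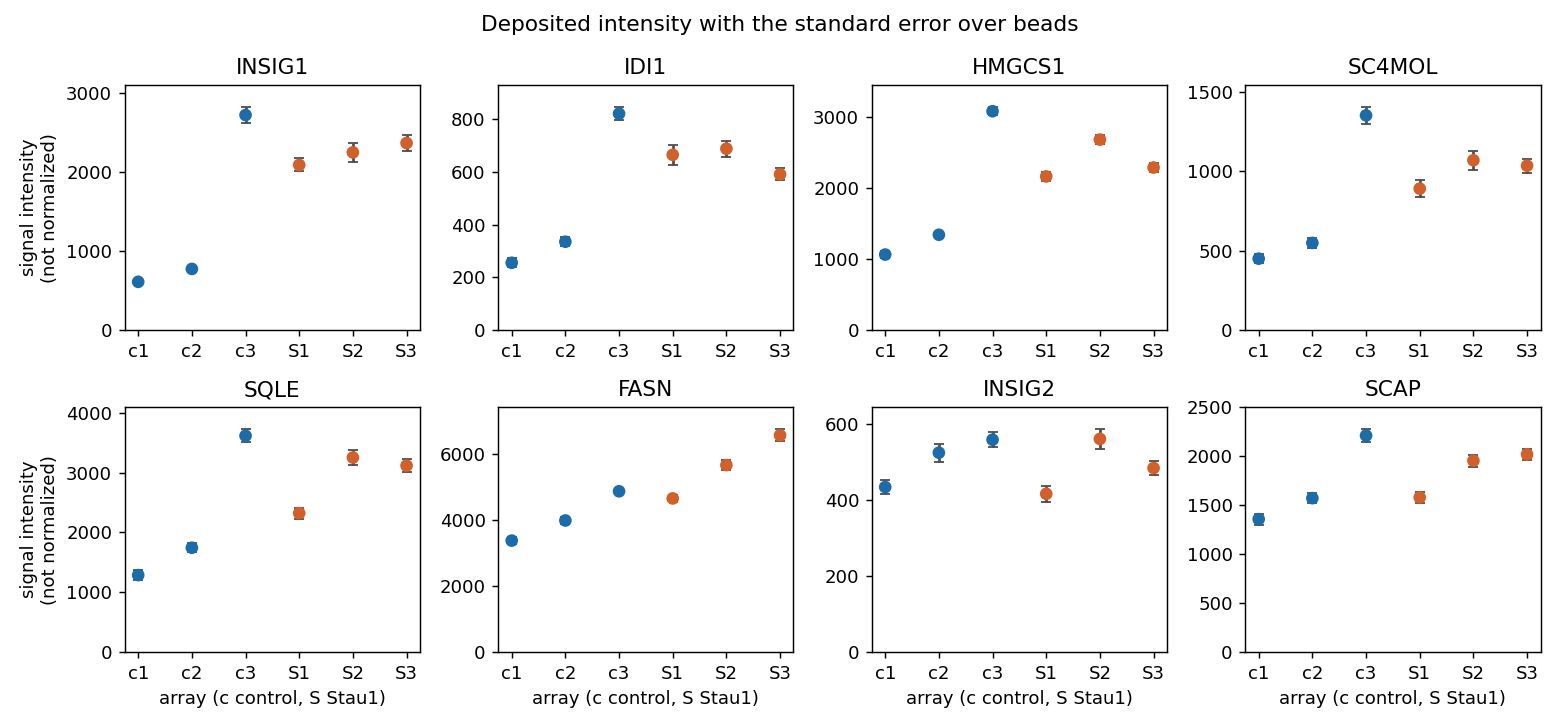
Deposited signal intensity (not normalized, linear axes from 0) of 8 genes on each array, with the standard error over beads as bars; c1 to c3 are the control arrays and S1 to S3 the Stau1 arrays. For INSIG1, IDI1, HMGCS1, SC4MOL and SQLE, c1 and c2 lie below the other 4 arrays, and c3 is the highest.

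The mevalonate steps turn acetyl-CoA units into the isoprenoid farnesyl diphosphate, and 6 of their genes were measured. HMGCS1, which makes the HMG-CoA from which mevalonate is formed, was 10.32, 10.42 and 11.22 in the controls and 11.13, 11.22 and 11.00 in the Stau1 arrays, a difference of 0.46 (SE 0.18). IDI1, the isomerase that makes dimethylallyl diphosphate, was 7.91, 8.20 and 9.19 in the controls and 9.33, 9.12 and 8.90 in the Stau1 arrays, a difference of 0.69 (SE 0.25). In both genes control replicates 1 and 2 were the lowest of the 6 arrays, by 0.58 for HMGCS1 and 0.71 for IDI1.

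The other mevalonate genes showed no such step. PMVK, the phosphomevalonate kinase, was 8.30, 8.06 and 8.14 in the controls and 8.16, 7.97 and 8.20 in the Stau1 arrays, a difference of -0.05 (SE 0.14) whose sign turned under median scaling and under array weights. MVK, the mevalonate kinase, was lowest in control replicate 2 at 6.78 and lay between 7.22 and 7.59 on the other 5 arrays. MVD and FDPS, the decarboxylase and the synthase of farnesyl diphosphate, differed by 0.21 (SE 0.16) and 0.20 (SE 0.12), with overlapping groups. Control replicates 1 and 2 were thus both below the other 4 arrays in 2 of the 6 mevalonate genes, and the median difference of the 6 was 0.21.

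From squalene to cholesterol, 11 genes were measured, and FDFT1, SQLE and SC4MOL had the same order of arrays as INSIG1 in that control replicates 1 and 2 were lowest. FDFT1, squalene synthase, was 11.68, 11.70 and 12.30 in the controls and 12.35, 12.24 and 12.20 in the Stau1 arrays, a difference of 0.37 (SE 0.14). SQLE, squalene epoxidase, a rate-limiting step of the pathway, was 10.62, 10.83 and 11.47 in the controls and 11.25, 11.52 and 11.45 in the Stau1 arrays, a difference of 0.43 (SE 0.17). SC4MOL, the sterol C4-methyl oxidase, was 8.96, 9.04 and 9.96 in the controls and 9.80, 9.82 and 9.80 in the Stau1 arrays, a difference of 0.48 (SE 0.21). Control replicate 3 stood with the Stau1 arrays in all of these, and the 3 Stau1 values of SC4MOL had an SD of 0.01 compared with 0.56 in the controls. The FDFT1, SQLE and SC4MOL rows are each the mean of several probes.

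The other steps were mixed. LSS, which closes squalene epoxide into lanosterol, was 8.22, 7.99 and 8.36 in the controls and 8.42, 8.24 and 8.36 in the Stau1 arrays, a difference of 0.15 (SE 0.14) with control replicates 1 and 2 lowest by 0.03. DHCR7, which completes cholesterol, and HSD17B7, a sterol ketoreductase, had the same 2 arrays lowest, by 0.32 and 0.13, and differed by 0.39 (SE 0.15) and 0.27 (SE 0.17) between the groups. CYP51A1, the lanosterol demethylase, was low in control replicate 1 alone, at 9.11 compared with 9.61 to 9.95 elsewhere.

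EBP, the sterol isomerase, did not share the pattern, at 11.14, 10.99 and 10.91 in the controls and 11.04, 10.96 and 10.99 in the Stau1 arrays, a difference of -0.02 (SE 0.10) whose sign turned under median scaling. TM7SF2, a sterol C14 reductase, had the most negative difference of the 30 genes, -0.21 (SE 0.13), and NSDHL and SC5DL differed by 0.21 (SE 0.12) and 0.13 (SE 0.13). Control replicates 1 and 2 were both lowest in 6 of the 11 genes, and the median difference of the 11 was 0.21.

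Outside the synthetic chain, ACAT2, which makes acetoacetyl-CoA in the cytosol, was 10.90 and 11.10 in control replicates 1 and 2 and between 11.33 and 11.57 on the other 4 arrays. NPC1, which exports cholesterol from late endosomes, was 8.88 and 9.09 in those 2 controls and between 9.19 and 9.42 elsewhere. Both had control replicates 1 and 2 lowest, with group differences of 0.29 (SE 0.13) and 0.13 (SE 0.14). STARD4, a cytosolic sterol carrier, was detected on 0 arrays, with detection p-values from 0.264 to 0.991.

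The fatty acid genes are shared targets of the SREBPs, and 7 were measured. SCD, the stearoyl-CoA desaturase, was 12.19, 12.06 and 12.73 in the controls and 12.66, 12.86 and 12.73 in the Stau1 arrays, a difference of 0.42 (SE 0.14) with control replicates 1 and 2 low. FASN, fatty acid synthase, was 12.07, 12.05 and 11.90 in the controls and 12.25, 12.34 and 12.54 in the Stau1 arrays, a difference of 0.37 (SE 0.10). FASN thus ordered the arrays differently from SCD, with control replicate 3 the lowest of the 6. It was the 1 gene of the 30 whose groups did not overlap with Stau1 higher, compared with 4.51% of all kept rows, and 0 of the 30 did not overlap with Stau1 lower, compared with 3.4%.

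ACLY, which supplies cytosolic acetyl-CoA, was 12.28, 12.31 and 12.40 in the controls and 12.37, 12.63 and 12.54 in the Stau1 arrays, a difference of 0.18 (SE 0.09). FADS2, a desaturase of polyunsaturated fatty acids, was 6.24, 5.49 and 6.56 in the controls and 6.37, 6.29 and 6.47 in the Stau1 arrays. Its difference of 0.28 (SE 0.22) rested on control replicate 2, without which it was -0.02. ELOVL6, a fatty acid elongase, was 10.58, 10.58 and 10.38 in the controls and 10.34, 10.39 and 10.31 in the Stau1 arrays, a difference of -0.17 (SE 0.10) with control replicates 1 and 2 the highest. ACACA, the carboxylase that makes malonyl-CoA, and FADS1 had control replicates 1 and 2 lowest and differed by 0.30 (SE 0.14) and 0.14 (SE 0.13). ACACA was detected on 4 of the 6 arrays, but its row averages several probes and its detection p-value did not follow its intensity. The p-value was 0.0713 at an intensity of 571 in Stau1 replicate 3 and 0.00581 at 315 in control replicate 1. The median difference of the 7 genes was 0.28, with 5 of 7 lowest in control replicates 1 and 2.

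**Figure D3:**
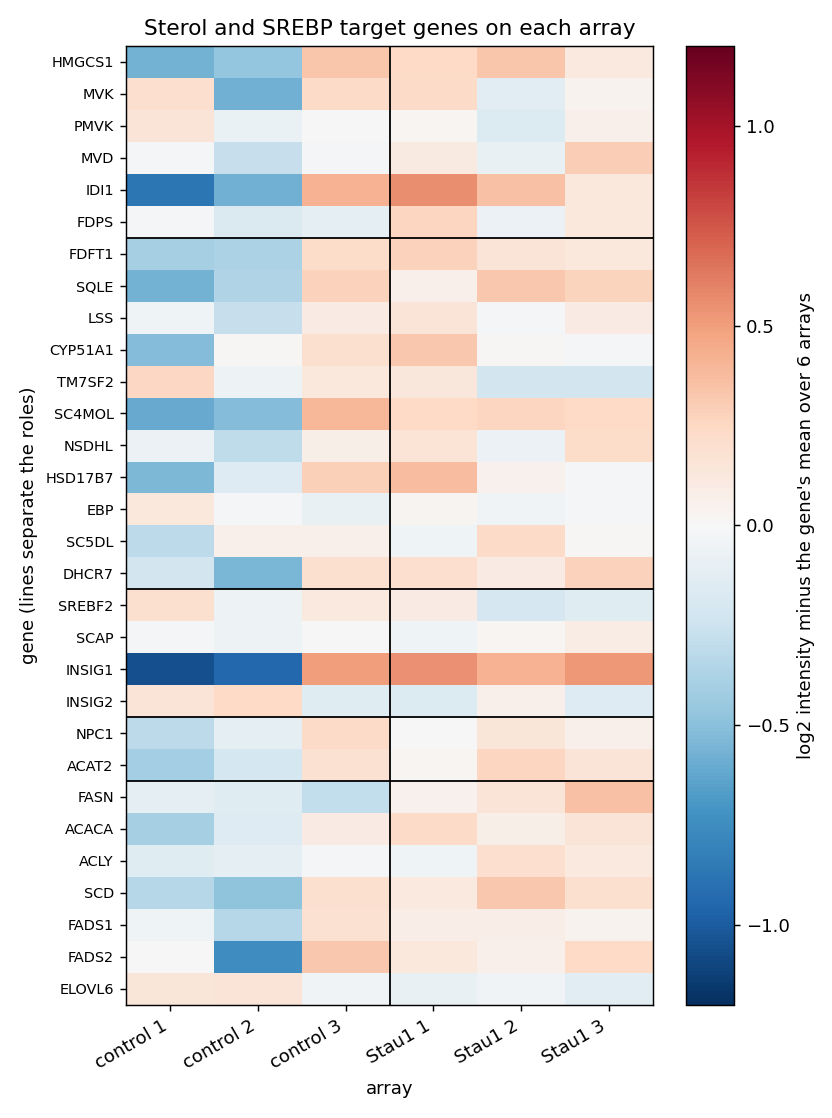
Log2 normalised intensity of each of the 30 genes minus that gene's mean over the 6 arrays (colour scale in log2 units), with arrays in columns and horizontal lines between the roles. Control 1 and control 2 are both blue for INSIG1, IDI1, SC4MOL and HMGCS1, control 3 resembles the Stau1 arrays there, and INSIG2 and ELOVL6 run the other way.

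Across the 30 genes, each gene's deviation from its own mean over the 6 arrays had a median of -0.13, -0.19 and 0.16 in control replicates 1 to 3 and of 0.12, 0.06 and 0.12 in Stau1 replicates 1 to 3 (log2). Control replicate 1 held the lowest value of 13 genes and control replicate 2 that of 10, while the other 4 arrays held that of 1 or 2 genes each. Over all kept rows, the same 2 arrays held the lowest value of 25.5% and 20.1% of rows. Control replicates 1 and 2 were both below the other 4 arrays in 16 of the 30 genes, compared with 13.1% of all kept rows. They were both above in 2 of the 30, INSIG2 and ELOVL6, compared with 1662 of the 13285 kept rows.

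By role, the 11 squalene-to-cholesterol genes had medians of -0.31 and -0.27 in control replicates 1 and 2 and from 0.05 to 0.19 on the other arrays. The 7 fatty acid genes had medians of -0.12 and -0.16 there and from 0.08 to 0.16 elsewhere. For the 6 mevalonate genes control replicate 2 stood at -0.37 and control replicate 1 at -0.02, and the 4 machinery genes had medians between -0.06 and 0.07 on every array, INSIG1 included. Control replicates 1 and 2 also had the fewest detected rows, 12730 and 12862, compared with 12951 to 13469 on the others. Their mean deposited intensities were 429.1 and 480.9, compared with 473.4 to 616.9 on the others, and the part of array brightness in the step was not tested.

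**Figure D4:**
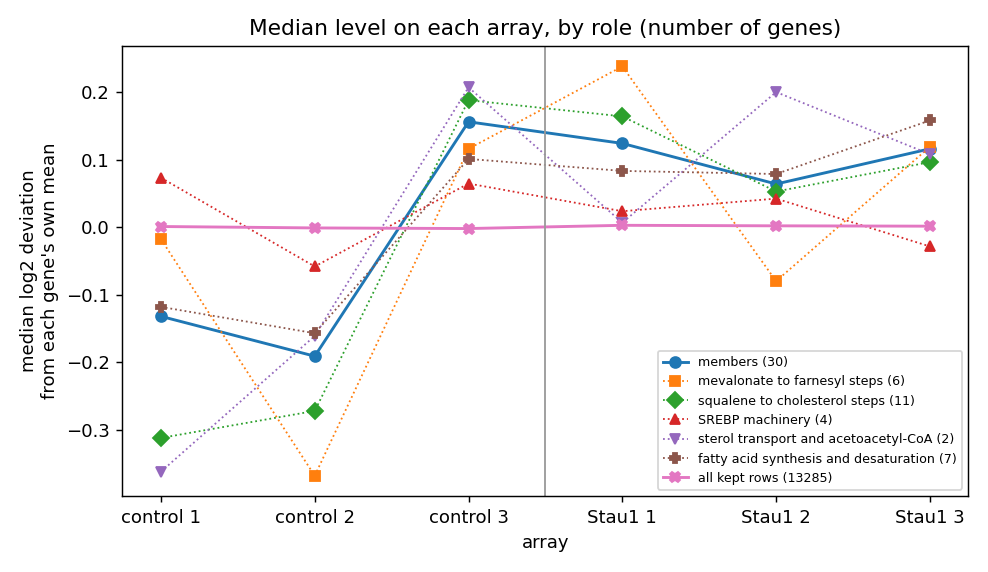
Median, over the genes of each role, of the log2 deviation from each gene's own mean, on each of the 6 arrays; lines join the medians of 1 role and the vertical line parts control from Stau1 arrays. The 30 genes together run from -0.19 in control replicate 2 to 0.16 in control replicate 3, while the median of all kept rows stays near 0.

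The genes' promoter letters were set beside this order. Of the 26 kept genes with a promoter window, 13 had control replicates 1 and 2 lowest, and of these 11 held CCAAT and 4 CACNCCAC, compared with 8 and 2 of the other 13. Neither motif stood in the windows of INSIG2 and ELOVL6, the genes in the reverse order, nor in those of NPC1 and FADS1, which had control replicates 1 and 2 lowest, nor in those of SCAP, PMVK and CYP51A1.

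Between the groups, 24 of the 30 genes had a positive difference, Stau1 minus control (80.0%, compared with 49.4% of all kept rows). Their median difference was 0.21 log2, compared with -0.00206 over all kept rows, and single differences ran from -0.21 for TM7SF2 to 1.00 for INSIG1. The control SD exceeded the Stau1 SD in 22 of the 30 genes (73.3%, compared with 68.4% of all rows), and the median SDs were 0.26 in the controls and 0.12 in the Stau1 arrays (0.17 and 0.12 over all rows).

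Leaving out control replicate 3 changed the calls. Without it, limma called 39 rows, 35 of them higher in Stau1 (0.263% of all kept rows), and 7 of the 35 were INSIG1, IDI1, HMGCS1, SC4MOL, FDFT1, SQLE and SCD, with limma adjusted p-values from 2.34e-05 to 0.0283. Their differences were then 1.50, 1.07, 0.75, 0.80, 0.57, 0.68 and 0.62, and the median of the 30 genes was 0.29. In 17 of the 30 genes, FASN among them, the groups then did not overlap with Stau1 higher, compared with 15.2% of all kept rows. In 2, INSIG2 and ELOVL6, they did not overlap with Stau1 lower, compared with 13.9%. With any 1 of the other 5 arrays left out instead, 0 rows were called. These 7 were among the values the genes were chosen by, so they are no independent evidence, and with all 3 controls in place 0 of the 30 genes were called.

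**Figure D5:**
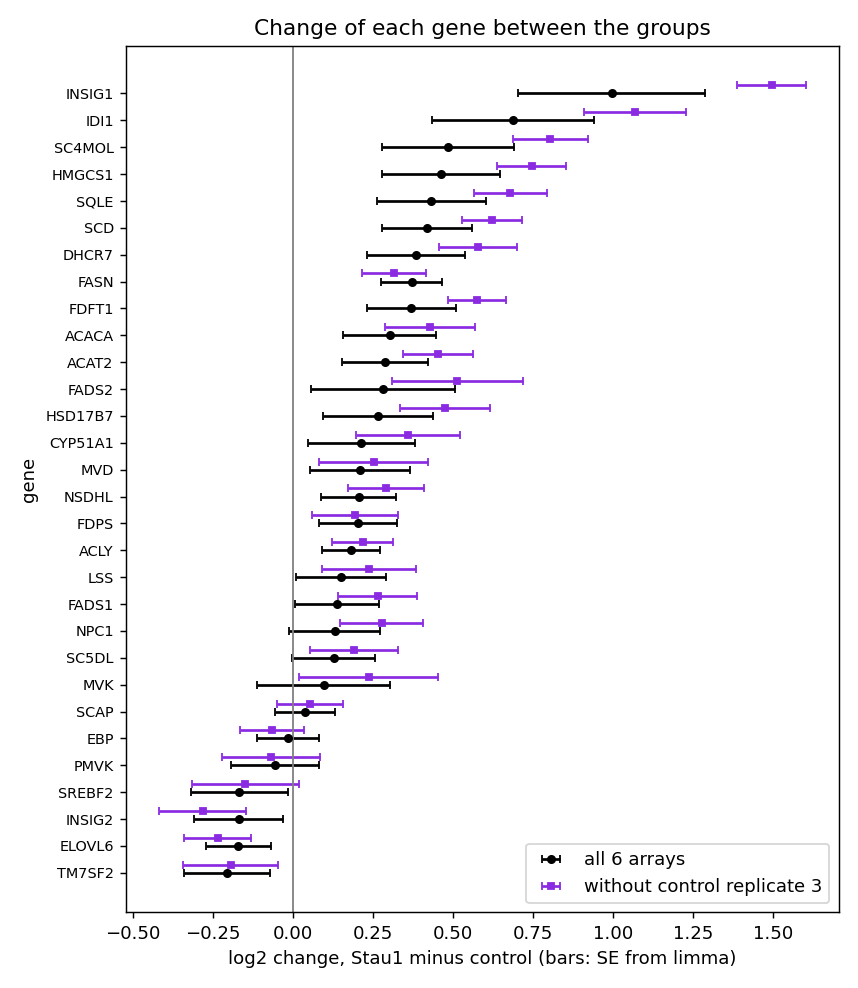
Log2 difference, Stau1 minus control, of each of the 30 genes with its standard error from limma, over all 6 arrays (black circles) and without control replicate 3 (purple squares). Without that array INSIG1 moves from 1.00 to 1.50 and its error shrinks from 0.29 to 0.11, whereas FASN moves from 0.37 to 0.32.

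Genes next to the pathway, in 4 other lists, were counted in the same way. Over all kept rows, control replicates 1 and 2 were both lowest in 13.1%. Among 13 genes of the other isoprenoid branches, which lead to prenylated proteins and tRNA, ubiquinone and dolichol, 0 had control replicates 1 and 2 lowest, and differences ran from -0.12 (RCE1, a prenyl-protein protease) to 0.21 (FNTB, a farnesyltransferase subunit). Among 12 kept genes of SREBP processing and sterol sensing, 3 did, and the most negative difference was -0.44 (SOAT1, which esterifies cholesterol). Among 11 other lipid genes that SREBP regulates, 4 did, and differences ran from -0.11 (GPAM, the first acyltransferase of glycerolipid synthesis) to 0.34 (LPIN1, a phosphatidate phosphatase). Among 8 genes of the liver X receptors, which answer to high sterols, 1 did, and differences ran from -0.38 (ABCA1, the cholesterol efflux pump) to 0.25 (RXRA, their partner receptor). In each of these lists 0 genes were called by limma with all 6 arrays, and ABCA1 was detected on 3 arrays.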

How the data were processed

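The deposited table was, per the file headers, a BeadStudio gene profile without normalization. It held for each gene row and array a signal intensity, which the authors had neither background-subtracted nor normalised, the detection p-value, a bead-level standard error on the intensity scale, and the mean bead number, treated here as a score as deposited. The authors' later steps (background correction, variance stabilization, robust spline normalization) were stated for immunoprecipitated RNA and are not in these intensities. Every column of values belonged to 1 of the 6 samples.

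Background mean and SD were inferred from detection p-values on 30932 rows of 1 probe (whole bead numbers, p in steps of 1 in 759, tolerance 0.002 steps), and limma 3.58.1 in R 4.3.3 then applied normexp (offset 16) and quantile normalization before log2 was taken. Background means were 74.6 to 92.7 and SDs 15.2 to 18.2. Arrays give no read depth, and their number, 3 per group, limits the precision. Rows with detection p under 0.05 on at least 3 of 6 arrays were kept. Groups came from the transfection in the labels and were compared with limma (lmFit, eBayes with a variance trend) and Benjamini-Hochberg adjustment over all kept rows at 0.05. The script was tested on simulated data. A row of several probes is their mean, as for FDFT1, SQLE, LSS, SC4MOL, DHCR7, SREBF1, INSIG1, ACAT2, ACACA, ACLY and ELOVL6. Cross-hybridisation between related genes (FADS1 and FADS2, for example) was not tested, since probe sequences were not used.

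The genes, their roles, the other lists and the tests were chosen with earlier results of these data known. Values on every array were given for 12 genes picked by role and for the 5 with the largest and the 5 with the smallest SD, and for the 8 other rows most like the genes' mean profile by Pearson's r, of which 1, like some genes of the other lists, is not reported here. Promoter windows came from RefSeq (GRCh38.p14) and were searched in Python 3.11.15. Alternatives changed the background, offset, normalization, filter, replicates, pairing, weights, variance trend and test. The replicate numbers were checked for pairing: the correlation of deviations from the group means was 0.02, 0.26 and -0.14 for numbers 1 to 3, so they were not taken as pairs.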

Additional observations from a re-analysis of the deposited data

How the results depend on the processing

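The number of rows called, 0 with all 6 arrays, stayed 0 under every alternative with all 6 arrays, with lowest limma adjusted p-values from 0.0551 (array weights) to 1, and ran from 0 to 39 when 1 array was left out, 39 being without control replicate 3. With the replicate number as a block, 0 rows were called, with a lowest limma adjusted p of 0.986, and the block changed no other call. Rows at an unadjusted p under 0.05 numbered 495, compared with 229 under median scaling, 1298 with array weights, 1564 with no filter and 1693 without control replicate 3. The count of genes whose groups did not overlap with Stau1 higher, 1 with all arrays (4.51% of all rows), became 1 to 17 when 1 array was left out: 17 without control replicate 3 (15.2% of all rows), 8 without Stau1 replicate 2 (9.41%), 3 without Stau1 replicate 1 (8.44%) and 2 without control replicate 1 (9.64%). The count with Stau1 lower, 0 over the 6 arrays, ran from 0 to 2. For these counts, the cause was not tested.

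The median difference of the genes lay between 0.149, with the background taken from all rows, and 0.296 under median scaling (which moved the median of all rows to 0.0679) and from 0.171 to 0.285 when 1 array was left out. Control replicates 1 and 2 were lowest in 24 of the 30 genes under median scaling, where 34% of all rows shared that order, compared with 16 and 13.1%, and in 17 under cyclic loess, 18 of 32 with no filter and 13 of 26 with detection p under 0.01 on all 6 arrays. Signs turned for EBP (0.08 under median scaling; -0.0655 to 0.0466 with 1 array left out), PMVK (0.0184 under median scaling, 0.0234 with array weights; -0.107 to 0.0144) and FADS2 (-0.0214 to 0.514 with 1 array left out, -0.0214 without control replicate 2). The other 14 named genes kept their sign, but 12 of them moved by over 1.5 times under at least 1 alternative. Over all alternatives INSIG1 ran from 0.717 to 1.50, IDI1 from 0.290 (background from all rows) to 1.07, HMGCS1 from 0.296 to 0.747, SC4MOL from 0.302 to 0.805, SQLE from 0.256 to 0.680, FDFT1 from 0.262 to 0.575 and LSS from 0.0452 (background from all rows) to 0.237, each highest without control replicate 3. SREBF2 ran from -0.257 to -0.00987, INSIG2 from -0.282 to -0.0753, ELOVL6 from -0.235 to -0.0813, SCAP from 0.00596 to 0.134 and ACLY from 0.125 to 0.275. A slide block could not be run, since no column gives the slide. Dim rows (SREBF2, FADS2) are limited by signal over background.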

Other observations

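Outside the pathway, the rows that followed the genes' mean profile over the 6 arrays most closely, among 5098 kept rows with a range of at least 0.5 log2, belonged to other kinds of transcript. They are given as a description, with Pearson's r over 6 arrays that fall apart into low and high ones, and all arrays share the same normalization. USP36, a nucleolar deubiquitinase, had an r of 0.993, HIST2H2BE, a histone H2B gene, 0.992, TRIM52 0.992, BRPF1, a chromatin reader, 0.988, and LTA, lymphotoxin alpha, 0.987.

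Small nucleolar RNAs were among them. SNORD13 (r 0.992) was 9.07, 9.13 and 11.41 in control replicates 1 to 3 and 11.59, 11.42 and 11.47 in the Stau1 arrays (log2 normalised intensity), a difference of 1.62 (SE 0.44), the highest of all kept rows. SNORD46 (r 0.989) was 5.92, 6.13 and 8.10 in the controls and 8.25, 7.81 and 7.88 in the Stau1 arrays, a difference of 1.26 (SE 0.41). In both, control replicates 1 and 2 were low and control replicate 3 stood with the Stau1 arrays, as for INSIG1. HIST2H2BE was 6.02, 5.84 and 7.10 in the controls and 6.96, 6.85 and 6.83 in the Stau1 arrays, USP36 8.01, 7.89 and 8.51 and then 8.46, 8.45 and 8.45. TRIM52 was 6.03, 6.03 and 6.84 in the controls and 6.81, 6.79 and 6.71 in the Stau1 arrays, and LTA 5.86, 5.65 and 6.67 and then 6.52, 6.48 and 6.61. BRPF1 was 10.43, 10.46 and 10.91 in the controls and 10.997, 10.89 and 10.94 in the Stau1 arrays. Limma called none of these rows with all 6 arrays. Without control replicate 3, the difference was 2.40 for SNORD13 and 1.96 for SNORD46, compared with 1.50 for INSIG1. For the other rows named here it ran from 0.50 (BRPF1) to 0.95 (HIST2H2BE).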
